A study of Homo sapiens with 6 samples.

Results

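The genes described here are 39 components of epithelial cell junctions and regulators of epithelial identity: claudins and other tight junction proteins, polarity proteins, adherens junction and desmosome proteins, and the transcription factors, splicing factors and enzymes that mark epithelial cells. They were chosen by symbol, with earlier results of these data known, and all 39 are among the 23368 gene symbols of the count table. RNA was sequenced from HCT116, an established human colon cancer line, after siRNA treatment: 3 libraries come from cells that received an siRNA against ADNP (siADNP), a chromatin-associated homeodomain protein, and 3 from cells that received a control siRNA (siControl). Both groups are the same line and differ, as far as the labels say, only in the siRNA; the sources used here give neither the siRNA sequences nor the time after transfection, and effects of the siRNA on other transcripts cannot be told apart from effects of ADNP loss. Nothing states that the 3 libraries of a group came from separate cultures, and p-values then reflect the spread among these libraries, which may be partly technical.

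Epithelial cells are held together by 3 kinds of junction. Tight junctions seal the space between neighbouring cells with strands of claudins and other membrane proteins, which cytoplasmic plaque proteins such as the ZO proteins tie to actin; adherens junctions join cells through classical cadherins bound to catenins; and desmosomes join them through desmogleins and desmocollins, which plakoglobin, plakophilins and desmoplakin link to intermediate filaments. Factors such as GRHL2, OVOL1 and ELF3 and the splicing regulators ESRP1 and ESRP2 are known to maintain this state, and ZEB and SNAI repressors are known to suppress it by binding E-box sequences in promoters of junction genes.

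Reads assigned to genes numbered from 7396771 to 10265175 per library, of which the 39 genes took 0.402% to 0.425%. ADNP mRNA, the check of the labels, stood at 53.9 ± 6.62 CPM (read counts scaled to library size, here with TMM factors) with siADNP and 164 ± 8.24 CPM with siControl (SD, n = 3 each). Keratins and EPCAM marked the cells as epithelial in both groups, with KRT8 at 1302 and 1297 CPM and KRT18 at 988 and 968 CPM with siADNP and siControl. Several markers of differentiated intestine were absent: VIL1, CEACAM5, CEACAM6 and PHGR1 had 0 reads in all 6 libraries, and LGALS4 had 1 read with siADNP and 4 with siControl. CDX2, from the same list of intestinal markers, was expressed, at 8.49 CPM with siADNP and 7.41 CPM with siControl. It did not pass (edgeR adjusted p = 0.383). Markers of other cell types were low, and few could be tested: 3 of 12 for fibroblasts and smooth muscle (1 higher, 1 lower), 1 of 12 for blood cells (higher), 1 of 8 for endothelium and 1 of 8 for squamous keratinocytes (neither called). Desmin DES, of muscle, stood at 6.55, 4.87 and 3.39 CPM with siADNP and 1.68, 1.38 and 1.09 CPM with siControl (log2 fold change 1.83, edgeR adjusted p = 5.48e-06), and smooth muscle actin ACTA2 at 3.60, 4.30 and 3.52 against 9.19, 5.9999 and 8.68 CPM (-1.04, edgeR adjusted p = 0.000127). CD68, of macrophages, rose by 0.42 on the log2 scale (edgeR adjusted p = 0.0366), a call that ended in DESeq2 (0.174), with the GC offset (0.106) and without any 1 library other than siControl replicate 1 (0.0622 to 0.114). The part of these genes in the results was not tested. The summed level of 12 fibroblast and smooth muscle markers was 15.5 to 20.3 CPM with siADNP and 15.1 to 19.2 with siControl, with DCN, LUM and PDGFRA at 0. For 12 blood markers the sums were 9.51 to 10.7 and 7.60 to 8.16 CPM, with CD3D, MS4A1, HBB and TYROBP at 0, and for 8 endothelial markers 6.003 to 8.81 and 5.55 to 7.96 CPM, with CDH5 and CLDN5 at 0. For 8 squamous keratinocyte markers they were 21.0 to 23.4 and 21.7 to 25.0 CPM, nearly all of it KRT10. In bulk RNA, fewer cells of a type and less RNA per cell cannot be told apart.

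Promoter sequence is shown for 4 of the genes, in pairs picked after their values were seen. CLDN3 and CLDN4 lie next to each other on chromosome 7 and were both higher with siADNP. DSP and DSC2 are desmosome genes that moved in opposite directions. CDH3 and CDH1 also differed in their change, but no promoter sequence was matched to either. Each sequence is the 250 bases before a RefSeq transcript start (GRCh38.p14), read 5′ to 3′ on the gene's strand, with capitals marking CAGGTG or its complement CACCTG, the E-box bound by ZEB and SNAI repressors, and GGGCGG or its complement CCGCCC, the GC box.
CLDN3 (chr7:73770271-73770520, minus strand): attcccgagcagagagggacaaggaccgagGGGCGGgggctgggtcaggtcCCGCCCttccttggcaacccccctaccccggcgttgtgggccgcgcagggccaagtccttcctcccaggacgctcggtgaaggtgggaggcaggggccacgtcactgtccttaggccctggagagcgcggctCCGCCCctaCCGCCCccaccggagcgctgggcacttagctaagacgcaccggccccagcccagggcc
CLDN4 (chr7:73830746-73830995, plus strand): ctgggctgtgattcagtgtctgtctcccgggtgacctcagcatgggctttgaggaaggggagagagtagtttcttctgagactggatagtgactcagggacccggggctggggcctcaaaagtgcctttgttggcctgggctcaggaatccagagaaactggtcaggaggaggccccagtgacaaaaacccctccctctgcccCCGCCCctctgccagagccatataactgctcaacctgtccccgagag
DSP (chr6:7541421-7541670, plus strand): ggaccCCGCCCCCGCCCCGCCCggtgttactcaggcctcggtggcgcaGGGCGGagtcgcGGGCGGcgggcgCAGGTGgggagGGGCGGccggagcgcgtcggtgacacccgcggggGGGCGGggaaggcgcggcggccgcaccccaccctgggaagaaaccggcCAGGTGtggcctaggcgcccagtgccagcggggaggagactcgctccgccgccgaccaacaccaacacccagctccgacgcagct
DSC2 (chr18:31102422-31102671, minus strand): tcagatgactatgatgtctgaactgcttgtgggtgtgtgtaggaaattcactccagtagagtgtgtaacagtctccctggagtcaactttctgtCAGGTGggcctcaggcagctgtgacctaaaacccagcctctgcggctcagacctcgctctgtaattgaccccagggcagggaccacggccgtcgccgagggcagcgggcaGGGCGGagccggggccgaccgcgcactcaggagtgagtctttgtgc
The claudin windows differ in composition. CLDN3's holds 4 GC boxes, 19 CpG dinucleotides and 71.6% G and C, and CLDN4's 1 GC box, 4 CpG dinucleotides and 58.8%; neither holds this E-box. DSP's window holds 2 such E-boxes and 7 GC boxes, some overlapping, in 78.0% G and C, and the DSC2 window shown holds 1 of each in 59.6%. DSC2 has another RefSeq window, not shown, with 2 GC boxes and no such E-box in 66.8% G and C. Over all 34 RefSeq windows matched to 21 of the members, 38.2% hold the E-box on either strand, against 17.5% of 35114 windows of all genes, and 67.6% hold the GC box, against 42.6%. By gene, 12 of the 21 members (57.1%) have the E-box in some window, against 20.6% of 27303 genes. The members' windows were also richer in G and C, with a median of 66.4% against 58.0%, and windows of one gene can overlap. The share by gene rises with the number of windows per gene, and the background also holds genes not tested here. These shares are thus descriptions. The GRHL core AACNGGTT stands in 1 member window, that of CGN, or 2.94%, against 1.49% of all windows. TATAAA stands in 1 member window as well, that of ELF3, against 10.7% of all windows.

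Of the 39 genes, 37 had enough reads to be tested. With siADNP, 7 were higher (CLDN3, CLDN4, TJP3, DSP, EVPL, CDH3 and ST14), 4 were lower (MARVELD2, DSC2, CTNNA1 and OVOL1), and 26 did not pass the threshold of 0.05 on edgeR's Benjamini-Hochberg adjusted p. The called share was 29.7%, against 28.3% of all 12489 tested genes (14.6% higher and 13.7% lower), and the median log2 fold change was -0.00245, against -0.00128 over all tested genes. The groups did not overlap in 14 of the 37 genes, 8 above control and 6 below, or 37.8%, where 40.8% of all tested genes did not overlap (20.1% above and 20.7% below). By number of calls and by median the genes as a set thus lay near the background. Among those called, CLDN3 alone changed by at least 1.5-fold, where 3.91% of all tested genes were called with such a rise and 1.08% with such a fall. The summed level of the 39 genes was 4088 to 4201 CPM in the siADNP libraries and 4047 to 4081 CPM in the siControl libraries, without overlap. The difference was small beside the sum itself, while single members differed in both directions.

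**Figure D1:**
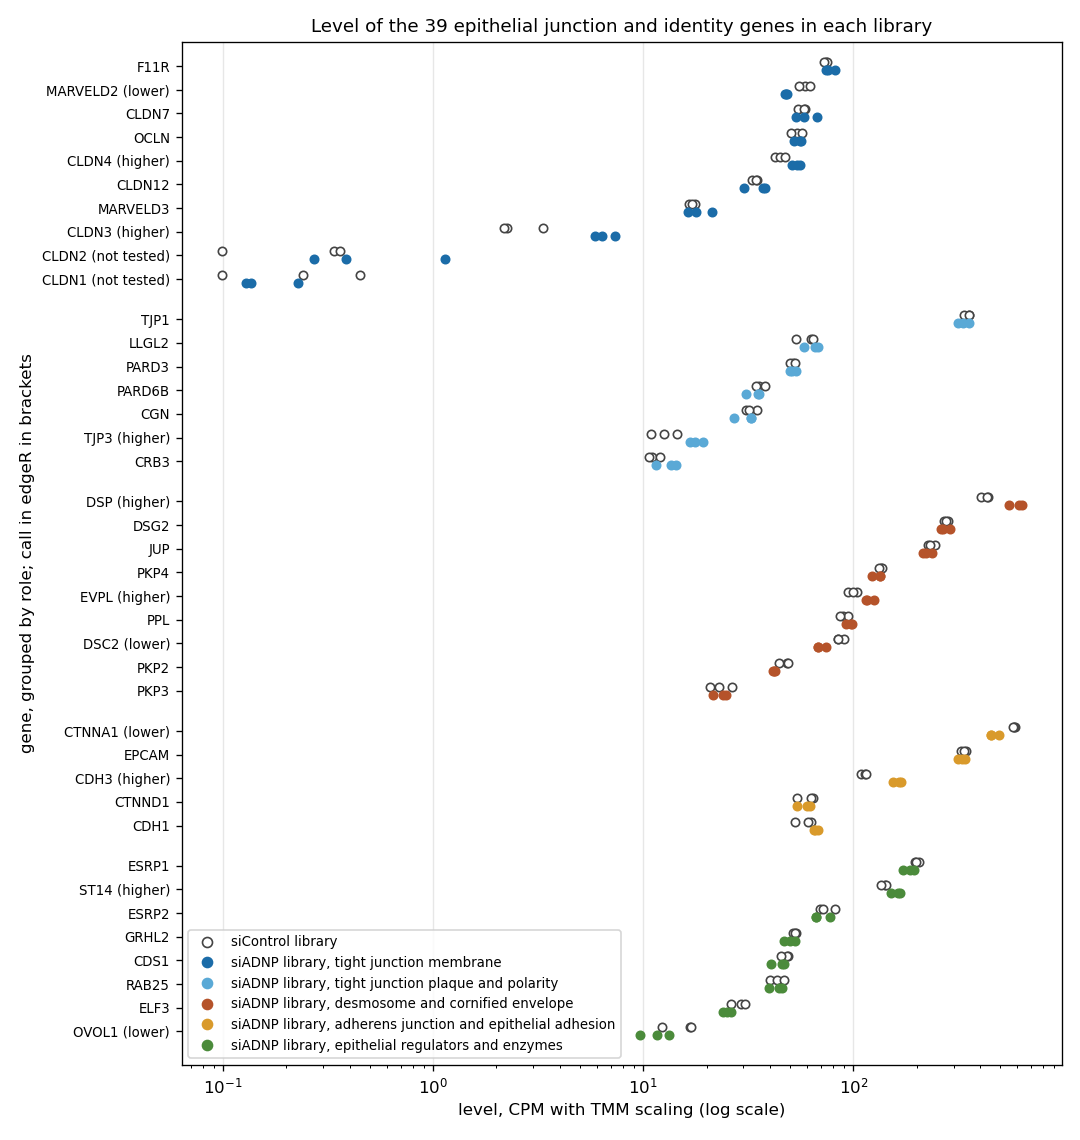
Level of each of the 39 genes in every library, in CPM with TMM scaling on a log axis, grouped by role; open points are siControl libraries and filled points siADNP libraries. CLDN3 shows the widest gap between the groups relative to its level, at 5.91 to 7.32 against 2.17 to 3.34 CPM, while most other genes have overlapping points.

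**Figure D2:**
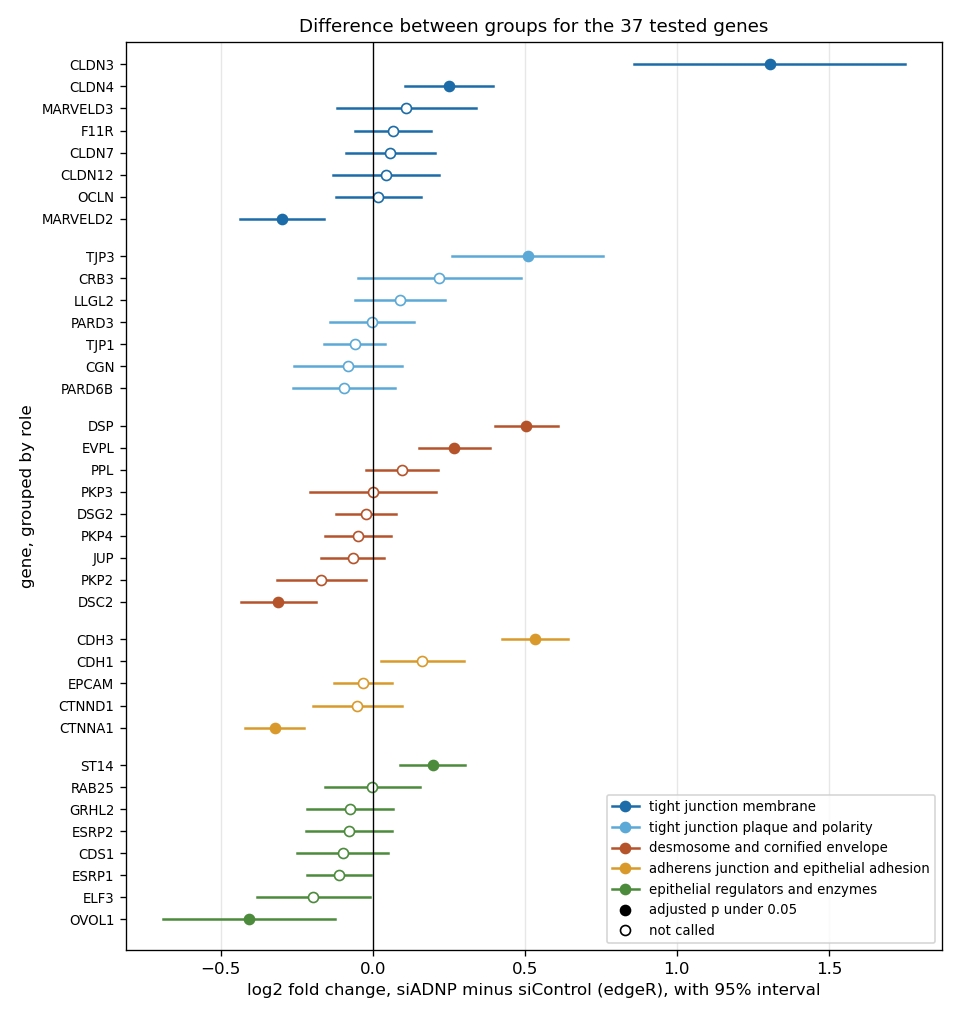
Log2 fold change, siADNP minus siControl, of the 37 tested genes with its 95% interval from the edgeR fit, grouped by role; filled points are called at an adjusted p under 0.05. CLDN3 stands apart at 1.31, and each of the 5 role groups holds at least 1 called gene.

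Compared per length, the genes covered a wide range of levels in control cells. The adhesion molecule EPCAM stood highest, at 167 CPM per kb of exon, next to alpha-catenin CTNNA1 at 148. Plakoglobin JUP followed at 63.3, then ESRP1 at 51.6, DSG2 at 44.7 and DSP at 43.4 CPM per kb. E-cadherin CDH1 stood at 11.8 CPM per kb and P-cadherin CDH3 at 22.4, so P-cadherin mRNA was the more abundant of these cadherins in both groups (13.3 and 32.4 with siADNP). Among claudins CLDN7 led with 27.7 CPM per kb, though another coding gene shares 13% of its exon bases in the GENCODE annotation. CLDN4 followed at 10.7 and CLDN12 at 9.54, and CLDN3 stood at 2.03. Among the testable genes CLDN3 was thus the lowest per length, and EPCAM stood 82.2 times above it. CLDN1 and CLDN2 were near the limit of detection, with 4 and 15 reads over the siADNP libraries and 7 and 7 over the siControl libraries, and were not tested.

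**Figure D3:**
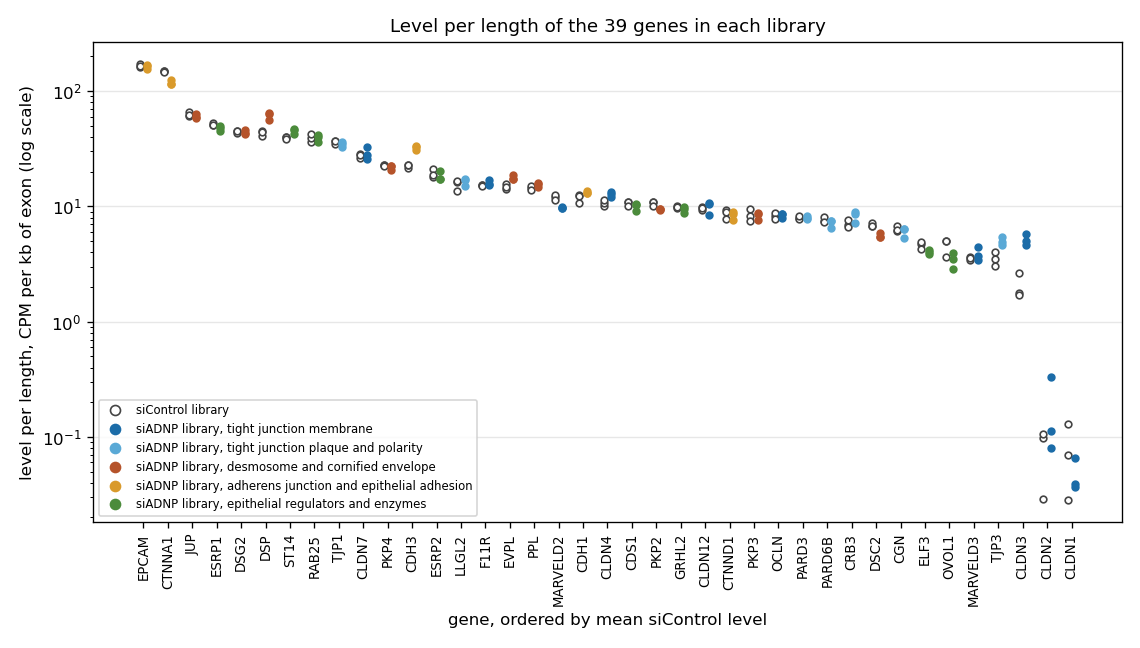
Level per length of the 39 genes, in CPM per kb of merged exon on a log axis, ordered by the siControl mean; open points are siControl libraries and filled points siADNP libraries, coloured by role. EPCAM and CTNNA1 stand highest, at 167 and 148 CPM per kb in control, and the group means of CLDN1 and CLDN2 lie more than an order of magnitude below those of the other genes.

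Among genes for membrane proteins of tight junctions, the claudins called were higher and 1 tricellular gene was lower. Of 8 tested, 2 were higher, 1 was lower and 5 did not pass, or 37.5% called against 28.3% of all tested genes. CLDN3, a barrier-forming claudin, stood at 5.91, 6.34 and 7.32 CPM in the siADNP libraries and at 2.24, 3.34 and 2.17 CPM in the siControl libraries. All 3 siADNP libraries lay above the controls, and the highest control was replicate 2. Its log2 fold change was 1.31 ± 0.22 (SE), or 2.47-fold (edgeR adjusted p = 1.85e-05). The counts behind it are small, with 46, 56 and 54 reads against 20, 34 and 18. CLDN4, its neighbour, was far more abundant and moved less. It stood at 53.8, 51.1 and 55.7 CPM with siADNP and 42.6, 45.0 and 47.3 CPM with siControl. The groups did not overlap, and the log2 fold change was 0.25 ± 0.07 (edgeR adjusted p = 0.00691). The CLDN4 call ended without siControl replicate 1 (edgeR adjusted p = 0.0510, log2 fold change 0.21). It also ended with the GC offset (edgeR adjusted p = 0.134, log2 fold change 0.14). The ratio of CLDN3 to CLDN4 was 0.110, 0.124 and 0.131 with siADNP and 0.0526, 0.0744 and 0.0459 with siControl, so CLDN3 gained on its neighbour in every siADNP library (exact permutation test, two-sided p = 0.1, the smallest that 3 libraries against 3 allow). This pair was picked after its values were seen, so the ratio restates the CLDN3 call and is no separate support.

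MARVELD2, or tricellulin, which seals the points where 3 cells meet, fell. Its level was 47.6, 47.5 and 48.1 CPM with siADNP and 58.7, 61.9 and 55.2 CPM with siControl. The siADNP libraries lay close together and all below the controls, with a log2 fold change of -0.30 ± 0.07 (edgeR adjusted p = 0.00103). Its relatives did not pass. Occludin OCLN, the founding member of that family, was at 54.8 ± 2.41 CPM with siADNP and 54.0 ± 3.10 with siControl (SD, n = 3 each), and MARVELD3 at 18.5 ± 2.49 and 17.03 ± 0.564 CPM. CLDN7 stood at 59.5 ± 6.82 and 57.1 ± 2.50 CPM, and CLDN12 at 35.1 ± 4.23 and 34.1 ± 1.03 CPM. F11R, the adhesion molecule JAM-A, stood at 77.1 ± 4.14 and 73.6 ± 1.17 CPM; 38.3% of its exon bases also belong to a read-through gene in the GENCODE annotation, which limits how its reads can be assigned. The 95% intervals of these 5 log2 fold changes all lay between -0.13 and 0.34.

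Of 7 plaque and polarity genes, TJP3 was the member called, or 14.3% against 28.3% of all tested genes. TJP3, the scaffold ZO-3, stood at 19.3, 17.7 and 16.7 CPM with siADNP and 12.6, 10.9 and 14.5 CPM with siControl. All siADNP libraries exceeded all controls, and the log2 fold change was 0.51 ± 0.12 (edgeR adjusted p = 0.00165). Its far more abundant relative TJP1, or ZO-1, stood at 335 ± 19.1 CPM with siADNP and 349 ± 9.93 with siControl (SD, n = 3 each), a log2 fold change of -0.06 that did not pass (95% interval -0.16 to 0.04). Cingulin CGN, which binds ZO proteins and myosin, stood at 30.7 ± 3.24 and 32.5 ± 1.95 CPM. The polarity genes gave overlapping groups throughout. PARD3 stood at 51.4 ± 1.62 and 51.6 ± 1.44 CPM and PARD6B at 33.7 ± 2.60 and 35.9 ± 1.75 CPM; both encode proteins of the PAR complex. LLGL2, a basolateral polarity protein, stood at 63.8 ± 5.11 and 60.1 ± 6.10 CPM, and CRB3, an apical one, at 13.1 ± 1.47 and 11.2 ± 0.745 CPM.

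DSP and DSC2, both desmosome genes, changed in opposite directions, and most genes of this group did not pass. Of 9 tested genes of desmosomes and the cornified envelope, 2 were higher, 1 was lower and 6 did not pass. The called share was 33.3%, against 28.3% of all tested genes. DSP, desmoplakin, which ties desmosomes to keratin filaments, stood at 635, 617 and 554 CPM with siADNP and 438, 403 and 433 CPM with siControl. In absolute level this was the widest difference among the 39 genes, with no overlap of the groups, a log2 fold change of 0.50 ± 0.05 and an edgeR adjusted p of 9.12e-10. DSC2, a desmosomal cadherin, went the other way. It stood at 68.1, 68.2 and 73.8 CPM with siADNP and 84.9, 90.0 and 85.0 CPM with siControl, again with no overlap (log2 fold change -0.31 ± 0.06, edgeR adjusted p = 0.000179). Its partner cadherin DSG2 stood at 272 ± 13.4 and 277 ± 5.50 CPM and did not pass (log2 fold change -0.02, 95% interval -0.12 to 0.08).

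Relative to their partners, both changes were visible in every library. The ratio of DSP to the plaque protein JUP was 2.95, 2.62 and 2.51 with siADNP and 1.93, 1.64 and 1.87 with siControl, and that of DSC2 to DSG2 was 0.260, 0.237 and 0.275 against 0.301, 0.332 and 0.306. Neither ratio overlapped between the groups (exact permutation test, two-sided p = 0.1 for each, the smallest possible). Both pairs were picked after their values were seen, so the ratios restate the calls of DSP and DSC2 and are no separate support. JUP itself stood at 224 ± 10.4 and 235 ± 10.3 CPM (SD, n = 3 each). The plakophilins, which cluster desmosomal proteins, did not pass either. PKP2 stood at 42.5, 42.0 and 41.5 CPM with siADNP and 48.4, 48.8 and 44.2 CPM with siControl, below control in every library but with an edgeR adjusted p of 0.0788. PKP3 stood at 23.3 ± 1.68 and 23.5 ± 2.86 CPM, and PKP4 at 130 ± 6.57 and 135 ± 1.98 CPM. Of the plakins, EVPL, or envoplakin, rose from 103.7, 94.3 and 99.2 CPM with siControl to 126, 117 and 116 CPM with siADNP, with no overlap (log2 fold change 0.27 ± 0.06, edgeR adjusted p = 0.000431). Its partner periplakin, PPL, stood at 96.4 ± 3.69 and 89.9 ± 3.88 CPM, and its groups overlapped.

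At adherens junctions P-cadherin rose and alpha-catenin fell, while E-cadherin did not pass. Of 5 tested genes of this group, 40% were called, against 28.3% of all tested genes. CDH3, P-cadherin, stood at 155, 164 and 169 CPM with siADNP and 109, 114 and 115 CPM with siControl. The groups lay well apart, with a log2 fold change of 0.53 ± 0.05 (edgeR adjusted p = 8.76e-10). An antisense gene overlaps 13.8% of the exon bases of CDH3 in GENCODE, and with the strand setting not given its reads may be counted here. CTNNA1, the alpha-catenin that links cadherin complexes to actin, stood at 451, 451 and 494 CPM with siADNP and 590, 581 and 574 CPM with siControl. Every siADNP library was below every control, with a log2 fold change of -0.32 ± 0.05 (edgeR adjusted p = 2.08e-06). CDH1, E-cadherin, stood at 65.4, 68.0 and 64.8 CPM with siADNP and 62.9, 60.9 and 52.9 CPM with siControl. Its groups did not overlap, but the log2 fold change of 0.16 ± 0.07 missed the threshold (edgeR adjusted p = 0.0688), which it passed with upper-quartile scaling (0.0356) or without siControl replicate 1 (0.0471). EPCAM stood at 328 ± 11.3 and 335 ± 8.92 CPM (SD, n = 3 each), with a 95% interval of its log2 fold change from -0.13 to 0.06, and CTNND1, p120-catenin, at 58.5 ± 4.31 and 60.4 ± 5.78 CPM. The ratio of CDH3 to CDH1 was 2.37, 2.42 and 2.60 with siADNP and 1.73, 1.87 and 2.17 with siControl, without overlap, and that of CTNNA1 to CTNND1 was 7.28, 8.40 and 8.23 against 9.14, 9.26 and 10.7, also without overlap (exact permutation test, two-sided p = 0.1 for each). These pairs too were picked after their values were seen, so the ratios restate the calls of CDH3 and CTNNA1.

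Among the member regulators and enzymes of epithelial identity, log2 fold changes ranged from -0.41 (OVOL1) to 0.20 (ST14). With the GC offset the ST14 call ended, and ELF3 and ESRP2 were called lower (edgeR adjusted p = 0.0162 and 0.0259). Of 8 regulators and enzymes, 1 was higher, 1 was lower and 6 did not pass, or 25% called against 28.3% of all tested genes. The log2 fold change was above 0 in 1 of the 8, and in 6214 of all 12489 tested genes. ST14, the membrane protease matriptase, stood at 164, 151 and 166 CPM with siADNP and 141, 142 and 135 CPM with siControl, with no overlap (log2 fold change 0.20 ± 0.05, edgeR adjusted p = 0.00469). OVOL1, a zinc finger repressor of mesenchymal genes, stood at 13.2, 9.63 and 11.7 CPM with siADNP and 16.7, 12.3 and 16.9 CPM with siControl. Its groups overlapped, since siADNP replicate 1 exceeded siControl replicate 2, and the log2 fold change was -0.41 ± 0.14 (edgeR adjusted p = 0.0255). The call was not stable: the adjusted p was 0.114 in DESeq2's Wald test, and 0.171, 0.0585, 0.125 and 0.118 in edgeR without siADNP replicate 2, siADNP replicate 3, siControl replicate 1 and siControl replicate 3. An antisense gene also covers 31.1% of its exon bases in GENCODE.

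The factor GRHL2, which activates many junction genes, stood at 49.8 ± 3.00 CPM with siADNP and 52.5 ± 0.978 with siControl (SD, n = 3 each), a log2 fold change of -0.08 with a 95% interval from -0.22 to 0.07. ESRP1, the more abundant of the epithelial splicing regulators, stood at 173, 194 and 187 CPM with siADNP and 196, 205 and 198 CPM with siControl. These values did not overlap, but the difference of -0.11 ± 0.05 on the log2 scale did not pass (edgeR adjusted p = 0.109; 0.0396 without siADNP replicate 2). ESRP2 stood at 70.3 ± 6.50 and 74.2 ± 6.60 CPM. The ETS factor ELF3 stood at 23.9, 24.9 and 26.0 CPM with siADNP and 29.3, 26.2 and 30.5 CPM with siControl, all siADNP libraries just below the lowest control (log2 fold change -0.20 ± 0.09, edgeR adjusted p = 0.110); its antisense gene ELF3-AS1 overlaps 10.8% of its exon bases. RAB25, a GTPase of apical recycling, stood at 43.4 ± 3.16 and 43.5 ± 3.27 CPM, and CDS1, a phospholipid synthesis enzyme of epithelia, at 44.5 ± 3.30 and 47.6 ± 1.98 CPM. Counts per gene do not show the splice forms that ESRP1 and ESRP2 control.

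GC content moved with these calls. Median GC content of the longest transcript was 62.8% for the 7 rises, 45.7% for the 4 falls and 49.2% for the other 26; over all tested genes the medians were 54.0%, 43.0% and 48.6%. Among all tested genes with a GC content over 60%, 25.5% were called higher and 4.40% lower, and at 40% or less 7.48% were higher and 25.5% lower. With an offset that removes each library's trend with GC content, the members' calls changed from 7 higher and 4 lower to 4 higher and 7 lower, and those over all tested genes from 1824 higher and 1714 lower to 1536 and 1845. The offset also moved the median log2 fold change down. It went from -0.00128 to -0.0228 over all tested genes and from -0.00245 to -0.0424 over the members. Of the 11 calls 8 remained: CLDN3, TJP3, DSP and CDH3 higher, and MARVELD2, DSC2, CTNNA1 and OVOL1 lower. CLDN3 kept a log2 fold change of 1.11 (edgeR adjusted p = 0.000202), CDH3 one of 0.46 and DSP one of 0.49. CLDN4, EVPL and ST14 no longer passed, with log2 fold changes of 0.14, 0.10 and 0.04 (edgeR adjusted p = 0.134, 0.215 and 0.591). JUP, ESRP2 and ELF3 were called lower only with the offset, at -0.21, -0.21 and -0.29 (edgeR adjusted p = 0.00175, 0.0259 and 0.0162). Whether the trend with GC content arose in the cells or in the libraries was not tested.

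**Figure D4:**
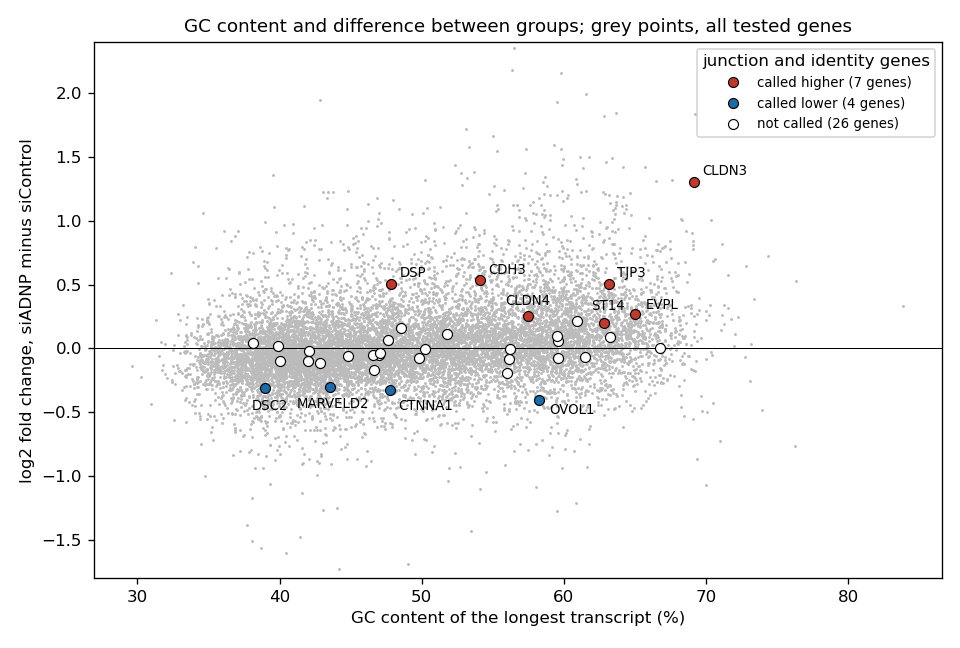
Log2 fold change, siADNP minus siControl, against the GC content of the longest transcript in percent; grey points are all tested genes and large points the 37 junction and identity genes, coloured by call. The 7 genes called higher lie towards higher GC content (median 62.8%) than the 4 called lower (45.7%), apart from DSP at 47.9% among the higher and OVOL1 at 58.3% among the lower.

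**Figure D5:**
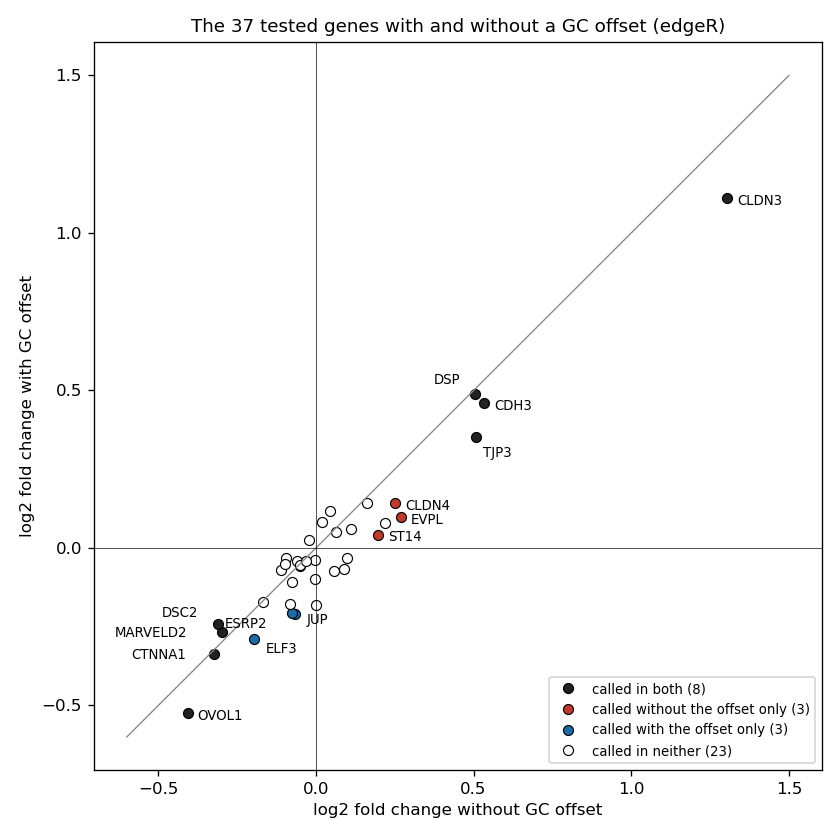
Log2 fold change of the 37 tested genes without a GC offset (horizontal) and with it (vertical), with the line of equal values; colours show in which fit a gene was called. CLDN3, CDH3, DSP and TJP3 were called higher in both, and CLDN4, EVPL and ST14 only without the offset.

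Further genes of these structures also changed in both directions. Of 90 tested genes from 5 further lists of junction and epithelial genes, 16 were higher, 14 lower and 60 did not pass, with a median log2 fold change of 0.01, beside -0.00128 over all tested genes. The called share was 33.3%, against 28.3% of all tested genes (14.6% higher and 13.7% lower), the background of each single list as well. With the GC offset 12 of the 90 were higher and 20 lower, beside 1536 and 1845 of all tested genes. Of 7 other tight junction membrane genes 1 was higher: LSR, the lipolysis-stimulated receptor that recruits tricellulin to tricellular contacts, rose by 0.18 ± 0.05 on the log2 scale (edgeR adjusted p = 0.00784), which fell to 0.02 with the GC offset (adjusted p = 0.863). Of 31 other plaque and polarity genes 5 were higher and 3 lower. CGNL1, or paracingulin, rose from 13.0 to 21.6 CPM (log2 fold change 0.72 ± 0.12), the scaffold DLG5 with 0.26, and AMOT, or angiomotin, with 0.45. PARD3B, a weakly expressed relative of PARD3, rose with 1.18 ± 0.30 (edgeR adjusted p = 0.00310), and the GTPase CDC42 fell with -0.17, a call that ended with the GC offset and replicate block together (edgeR adjusted p = 0.0640).

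Of 17 other adherens junction genes, 3 were higher and 4 lower. PVRL2, or nectin-2, rose by 0.46 ± 0.06 on the log2 scale, and PVRL3, or nectin-3, fell with -0.20, a call that ended with the GC offset (edgeR adjusted p = 0.0570) and without siControl replicate 3 (0.0613). CTNNAL1, a relative of alpha-catenin, fell from 227 to 175 CPM (log2 fold change -0.38 ± 0.05), beside the fall of CTNNA1. VEZT, or vezatin, a cadherin-catenin binding protein, fell with -0.25, which did not pass with the GC offset and replicate block together (edgeR adjusted p = 0.0511), and LMO7, which links nectin and cadherin adhesion, fell with -0.63. LIMD1 rose with 0.17 at an edgeR adjusted p of 0.0453, and did not pass in DESeq2 (0.166), with the GC offset (0.0739), with no filter (0.0646) or without siADNP replicate 1 (0.109), siADNP replicate 2 (0.165), siControl replicate 2 (0.264) or siControl replicate 3 (0.0705). Beta-catenin CTNNB1 itself stood at 534 and 527 CPM and did not pass, and N-cadherin CDH2 had 1 read in each group. Of 9 further genes listed with desmosomes, the cornified envelope and keratins, 3 were lower and none was higher (33.3% called, against 28.3% of all tested genes). The list is broad and also holds CTNNBL1 and PNN, whose part in desmosomes was not tested. PERP, a desmosomal membrane protein, fell from 227 to 171.7 CPM (log2 fold change -0.41 ± 0.05), PNN, or pinin, from 291 to 219 CPM (-0.42 ± 0.05), and KRT19 with -0.15 ± 0.05. KRT19 did not pass with upper-quartile scaling (edgeR adjusted p = 0.0604) or without siADNP replicate 2 (0.0726), siADNP replicate 3 (0.0858), siControl replicate 2 (0.123) or siControl replicate 3 (0.0656).

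Of 26 other epithelial regulators, 7 were higher and 4 lower, or 42.3% called, against 28.3% of all tested genes. SPINT2 and SPINT1, which encode inhibitors of matriptase, rose by 0.40 and 0.30 on the log2 scale, the same direction as their target ST14. The calls of SPINT1 and ST14 ended with the GC offset (edgeR adjusted p = 0.102 and 0.591). ERBB3, a receptor of epithelial cells, rose with 0.28. KLF5, a transcription factor of intestinal epithelium, fell from 94.7 to 70.2 CPM (log2 fold change -0.43 ± 0.06), ELF1 with -0.37 and AP1M2, a subunit of the epithelial clathrin adaptor, with -0.37. Repressors of epithelial genes and mesenchymal genes were mostly near absent. Of 25 listed, 10 were testable, of which 5 were higher and none lower, where 14.6% of all tested genes were higher and 13.7% lower; 3 of the 5 calls ended both in DESeq2 and with the GC offset. QKI, a splicing factor of mesenchymal cells, rose with 0.49 ± 0.08, fibronectin FN1 with 0.42 ± 0.10 from 19.1 to 25.5 CPM, and the receptor AXL with 0.23. SNAI3 rose with 0.78 ± 0.25 at a mean of 4.12 against 2.42 CPM, and TCF3, or E2A, with 0.14. The calls of AXL, SNAI3 and TCF3 ended with the GC offset (edgeR adjusted p = 0.127, 0.0636 and 0.946, the last with a log2 fold change of -0.01) and in DESeq2 (0.108, 0.109 and 0.103). AXL also lost its call without siADNP replicate 3 (edgeR adjusted p = 0.148), siControl replicate 1 (0.145) or siControl replicate 2 (0.0528), and SNAI3 without siADNP replicate 2 (0.140) or siControl replicate 1 (0.0769). TCF3 lost it whichever of the 6 libraries was left out (0.0574 to 0.156). ZEB1 stood at 12.7 and 10.4 CPM (log2 fold change 0.29 ± 0.14, edgeR adjusted p = 0.110, and 0.0446 with the GC offset), SNAI1 at 6.91 and 6.41 CPM and vimentin VIM at 9.54 and 8.04 CPM. SNAI2 had 12 and 17 reads and ZEB2 7 and 15 reads over the siADNP and siControl libraries, too few to test.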

How the data were processed

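RNA-seq of 6 HCT116 libraries was analysed. Per the labels' protocols, total RNA was extracted with Trizol, treated with a DNase and made into libraries with a Nugen whole-transcriptome kit. Per the submitters' processing notes, STAR, HTSeq and DESeq2 were used with hg19, without versions; the sources used here give no annotation or strand setting. The deposited count table holds raw counts of reads per symbol; the deposited second table holds log2-like variance-stabilized values with a floor of 7.13, used only in an alternative. Lines naming no gene (no feature and not uniquely aligned) stayed out of library sizes. Reads with no feature made up 54.4% to 55.7% with siADNP and 53.5% to 54.3% with siControl, without overlap. Reads not uniquely aligned made up 17.4% to 17.9%.

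Counts were tested on the whole table with edgeR 4.0.16 in R 4.3.3 (TMM, filterByExpr with a minimum count of 10, glmQLFit, glmQLFTest, two-sided, siADNP minus siControl, Benjamini-Hochberg over all 12489 tested genes, threshold 0.05). Standard errors are the log2 fold change over the square root of F, and 95% intervals use the fit's t distribution. Alternatives used DESeq2 1.42.0, limma 3.58.1, other scaling and filters, a GC offset (loess per library, GC content known for 96.7% of tested genes), a replicate block and leaving out each library. Exon length (merged exons), GC content and gene overlaps came from GENCODE v29, a newer build, so no gene coordinates are given; promoters are from RefSeq, GRCh38.p14. Figures used matplotlib 3.10.9.

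The 39 members, the other lists and the alternatives were chosen with earlier results of these data known. All members were to be named, each called member with its value in every library, and up to 6 called genes of each other list by smallest p. A gene that this rule names among the plaque and polarity genes is not reported here. The ratios, the promoters shown and CTNNB1, ZEB1, SNAI1, VIM, KRT8, KRT18, CDX2 and genes given only by reads were picked after their values were seen. No 2 libraries matched within sampling noise: a chi-square over genes gave 1.80 to 3.04 per degree of freedom within groups and 6.63 to 8.63 between them. Precision was limited by read number, from 228 reads over all libraries (CLDN3) to 27069 (CTNNA1).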

Additional observations from a re-analysis of the deposited data

How the results depend on the processing

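With each library left out, 7 members were called higher, not always the same ones (without siControl replicate 1, CLDN4 lost its call and CDH1 gained one), and 3 to 4 lower (without siADNP replicate 2, OVOL1 lost its call and ESRP1 gained one); the GC offset, alone or with the replicate block, gave 4 higher and 7 lower, and the other alternatives gave 7 or 8 higher and 3 or 4 lower. DESeq2's Wald test called 1106 of all tested genes higher and 1079 lower, against 1824 and 1714; the cause was not tested. Left-out libraries gave 1470 to 1655 higher and 1307 to 1508 lower over all tested genes, and 12 to 15 higher and 10 to 14 lower among the other junction and epithelial genes. The replicate numbers are not known to pair the libraries: the deviations of same-numbered libraries from their group means correlated at 0.02, -0.04 and -0.03, and not every library correlated best with its own number. With the number as a replicate block, edgeR called 7 members higher and 4 lower and 1694 and 1542 of all tested genes.

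Directions reversed only for genes near 0 that were not called, and for TCF3. With the GC offset, without and with the replicate block, the log2 fold changes were -0.072 and -0.074 for CLDN7, -0.18 and -0.18 for PKP3, 0.025 and 0.025 for DSG2, -0.032 and -0.031 for PPL, -0.067 and -0.066 for LLGL2, -0.0058 and -0.0058 for TCF3, and -0.011 and -0.015 for SNAI1. With upper-quartile scaling they were 0.022 for PARD3, 0.00253 for DSG2 and 0.022 for RAB25. PKP3 gave -0.0052 in DESeq2, -0.0076 with no filter, -9.8e-05 with 1 CPM in 3 libraries and -0.00324 in limma on the deposited log2 table. Leaving out single libraries spanned 0 for CLDN7 (-0.026 to 0.13), CLDN12 (-0.0047 to 0.14), OCLN (-0.023 to 0.062), CGN (-0.13 to 0.0024), PARD3 (-0.022 to 0.016), PKP3 (-0.081 to 0.092), DSG2 (-0.064 to 0.00698), CTNND1 (-0.12 to 0.011), ESRP2 (-0.16 to 0.00202), RAB25 (-0.055 to 0.055), SNAI1 (-0.047 to 0.23) and CTNNB1 (-0.00703 to 0.051). Depth limits CLDN1 and CLDN2, which were not testable, and widens the interval of CLDN3.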
